A study of Mus musculus with 12 samples.

Results

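The deposited coverage tracks of this mouse liver ChIP-seq study list the same 532 stretches of the genome in all 12 libraries, and 26 of them lie on autosomes and are longer than 444 bp and shorter than 501 bp (452 to 497 bp). These 26 were chosen by length and chromosome alone, after lines that abut in the tracks had been joined. A further condition would have removed 5S-like stretches of chromosome 8 with fractional coverage at 80% or more of their bases in RPC4 replicate 1, but it removed none of the 4 members on that chromosome. Coverage values were not used to choose the members. Annotated 5S rRNA genes in the tracks carry 150 bp of flank on each side, so the middle of each stretch, without its outer 150 bp, is called the element here. Elements were 152 to 197 bp long (median 174.5 bp).

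RNA polymerase III (Pol III) transcribes short RNA genes such as those for tRNAs and 5S rRNA. In tRNA genes its start is directed by an A box and a B box that lie inside the transcribed sequence, and a run of T ends the transcript. The same pair of boxes occurs in many short interspersed elements (SINEs), repeats that spread through RNA copies: in rodents the B2 family derives from a tRNA and the B1 family from 7SL RNA, the RNA of the signal recognition particle. No repeat annotation was used here, so no element is assigned to a SINE family below.

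Sonicated, formaldehyde-fixed liver chromatin was immunoprecipitated from C57/BL6 males, 12 to 14 weeks old, which had food only from Zeitgeber time 12 h to 24 h for 7 days, under 12 h of light per day. The labels also give 2 weeks of free feeding for all libraries. The labels give 5 mice at 2 h and 5 more at 26 h as the biological replicate, but tie no replicate number to a time and do not say whether mice were pooled, so spread between replicates may be partly technical. The groups were RPC1 and RPC4 (both Pol III subunits), RPB2 (a Pol II subunit), H3K4-titled, H3K36-titled and input chromatin, with 2 libraries each, and no genotype or treatment differed between them. Titles and antibody fields of the 4 histone libraries contradict each other, since H3K36me3 is the antibody entered for the pair titled H3K4, and H3K4me3 for the pair titled H3K36. The names H3K4-titled and H3K36-titled follow the titles and track headers. The tracks hold no liver marker genes against which the tissue could be checked.

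Coverage, in reads per base, had not been scaled for depth. The 26 stretches held the equivalent of 1378 to 2813 reads of 76 bp in the Pol III libraries, 2266 and 2031 in RPB2, 1662 and 3641 in H3K4-titled, 163.4 and 121.3 in H3K36-titled and 263.8 and 225.6 in input. A median member thus rested on 31.8 to 50.4 reads in a Pol III library, on 2.65 and 2.14 reads in the H3K36-titled libraries and on 7.12 and 6.03 reads in the input libraries. How the authors picked the stretches is not given in the sources used here. If Pol III reads were used for it, an excess over input would follow from that choice, and this was not tested. Whole liver mixes cell types, so a signal in few cells and a weak signal in many cannot be told apart.

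Of the 26 elements, 13 lay in introns, 2 overlapped exons and 11 were intergenic in the GENCODE vM1 annotation of the mm9 build. 9 elements had their centre within 2.5 kb of the start of a protein-coding gene, and 3 within 1 kb. None overlapped an annotated Pol III gene. Each is named below by its host gene or, between genes, by the nearest gene start, which says nothing of a link between the element and that gene.

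Most of the elements resembled one another in sequence. By local alignment at a minimum score of 60, 14 elements formed a first group, whose 89 aligned pairs had a median identity of 84.7% (73.0 to 94.0%). It comprised the elements named Mki67ip, Selenbp1, Stim2, 1110003E01Rik, Dhdh, Ddx19a, Parp16, Dnajc12, 1110038D17Rik, Rps6kl1, Aldh5a1, Itsn1, Rbm14 and Fam160b1. Selenbp2, Swap70, Eef2k, Ankrd10, Pabpn1 and Klf9 made up a second group of 6, with a median identity of 83.7% over 13 pairs. The other 6, C130026I21Rik, Gm16026, Sdhc, Klrb1b, Dlgap2 and Gm10060, aligned to no other element at that score. In the first group 12 elements held the letters GTTCNANNC, a B box, and 10 held an A box, here TGGC followed by any 2 bases, A, any 2 bases and GG. The 8 with both on the same strand had them 45 or 46 bases apart, start to start. All 6 of the second group held a B box and none an A box. Ankrd10 and Selenbp2 of that group aligned at the same score to the annotated RNA gene beside Nemf, a 7SL gene by its neighbour, with 81.6% identity over 76 columns for Ankrd10 and 83.3% over 60 columns for Selenbp2. Copies of parts of these sequences were frequent in the genome: 16 of the 26 elements held a word of 24 bases with more than 1000 copies, and the highest number was 55615.

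The 8 elements printed here, from the mm9 genome (NCBIM37) and 5′ to 3′, are those on which the results below turn. B boxes and A boxes are in capitals. The first 3 had much Pol III and belong to the first group, Mki67ip and Parp16 show weaker members of that group, Ankrd10 stands for the second group, Klrb1b had the highest Pol III coverage of all 26, and Dlgap2 is one of the elements with high input.
Dnajc12 (chr10:62866100-62866281, plus strand): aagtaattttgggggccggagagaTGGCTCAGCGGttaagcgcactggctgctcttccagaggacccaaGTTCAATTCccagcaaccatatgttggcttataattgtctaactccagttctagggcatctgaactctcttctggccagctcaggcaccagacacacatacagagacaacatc
1110038D17Rik (chr10:74967299-74967451, plus strand): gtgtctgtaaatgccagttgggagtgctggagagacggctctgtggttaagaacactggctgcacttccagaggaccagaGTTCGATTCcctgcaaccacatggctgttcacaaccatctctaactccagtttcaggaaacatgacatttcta
Rbm14 (chr19:4820900-4821061, plus strand): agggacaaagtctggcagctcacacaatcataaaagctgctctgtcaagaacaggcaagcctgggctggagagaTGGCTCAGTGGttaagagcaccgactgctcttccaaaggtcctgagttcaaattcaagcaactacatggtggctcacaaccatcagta
Mki67ip (chr1:120246867-120247052, plus strand): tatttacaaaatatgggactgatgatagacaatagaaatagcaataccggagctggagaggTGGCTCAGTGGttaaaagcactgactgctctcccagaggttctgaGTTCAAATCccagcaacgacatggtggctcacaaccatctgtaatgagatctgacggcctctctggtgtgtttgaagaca
Parp16 (chr9:65049244-65049401, plus strand): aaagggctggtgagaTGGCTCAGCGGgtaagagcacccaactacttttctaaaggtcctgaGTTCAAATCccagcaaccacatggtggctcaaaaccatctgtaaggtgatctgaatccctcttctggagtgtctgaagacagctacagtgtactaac
Ankrd10 (chr8:11633860-11634052, plus strand): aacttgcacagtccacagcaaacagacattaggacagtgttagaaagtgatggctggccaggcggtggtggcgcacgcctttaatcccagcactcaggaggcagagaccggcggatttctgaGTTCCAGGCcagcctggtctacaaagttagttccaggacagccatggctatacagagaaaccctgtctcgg
Klrb1b (chr6:128788436-128788587, plus strand): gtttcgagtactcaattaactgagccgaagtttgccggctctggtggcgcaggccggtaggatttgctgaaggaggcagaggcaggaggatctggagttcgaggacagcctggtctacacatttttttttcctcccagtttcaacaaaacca
Dlgap2 (chr8:14306806-14306982, plus strand): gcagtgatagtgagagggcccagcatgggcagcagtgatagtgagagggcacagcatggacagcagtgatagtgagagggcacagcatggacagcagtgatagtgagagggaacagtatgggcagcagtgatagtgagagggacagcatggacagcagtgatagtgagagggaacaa

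The A box was found in 38.5% of the 26 elements and in 19.6% of the other 506 stretches, each searched without its outer 150 bp. In the first 174 bp of each of 32851 gene promoter sequences (RefSeq, GRCm38) the share was 2.91%. Many of the other stretches are shorter than any member, so these shares are not over windows of equal length. The B box was found in 80.8% of the elements, 77.5% of the other stretches and 5.75% of promoters, and TTTT in 61.5%, 18.4% and 66.9% of them, each searched on both strands. These are matches of letters and not sites. A box spelled otherwise is missed, so the shares do not say how often members and other stretches have a box. Rbm14 and Rps6kl1 were the members of the first group without a B box by these letters. Klrb1b held neither box, but carried a run of 9 T near its 3′ end, and its best alignment to another element (Ankrd10, 84.3% over 51 columns) had a score of 59, just under the limit. Dlgap2 was itself a tandem repeat: shifted by 31 bases, 77.4% of its bases matched, against 31.5 to 42.7% at the best shift of the other 25.

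Pol III coverage ranged widely over the 26 stretches. The mean over the 4 Pol III libraries was 2.95 to 102.1 reads per base with a median of 6.85, against 0.247 to 5.56 with a median of 0.947 in input. In the other 506 stretches the medians were 17.6 for Pol III and 1.04 for input. The members covered 5.56% of the listed bases and held 1.60 to 1.75% of the coverage of each Pol III file, but 6.70 and 7.40% of that of the input files. In 23 of the 26 stretches all 4 Pol III libraries lay above both input libraries, as they did in 370 of all 532, and in 18 the lowest Pol III library was at least 2 times the highest input library, as it was in 333 of the 532.

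**Figure D1:**
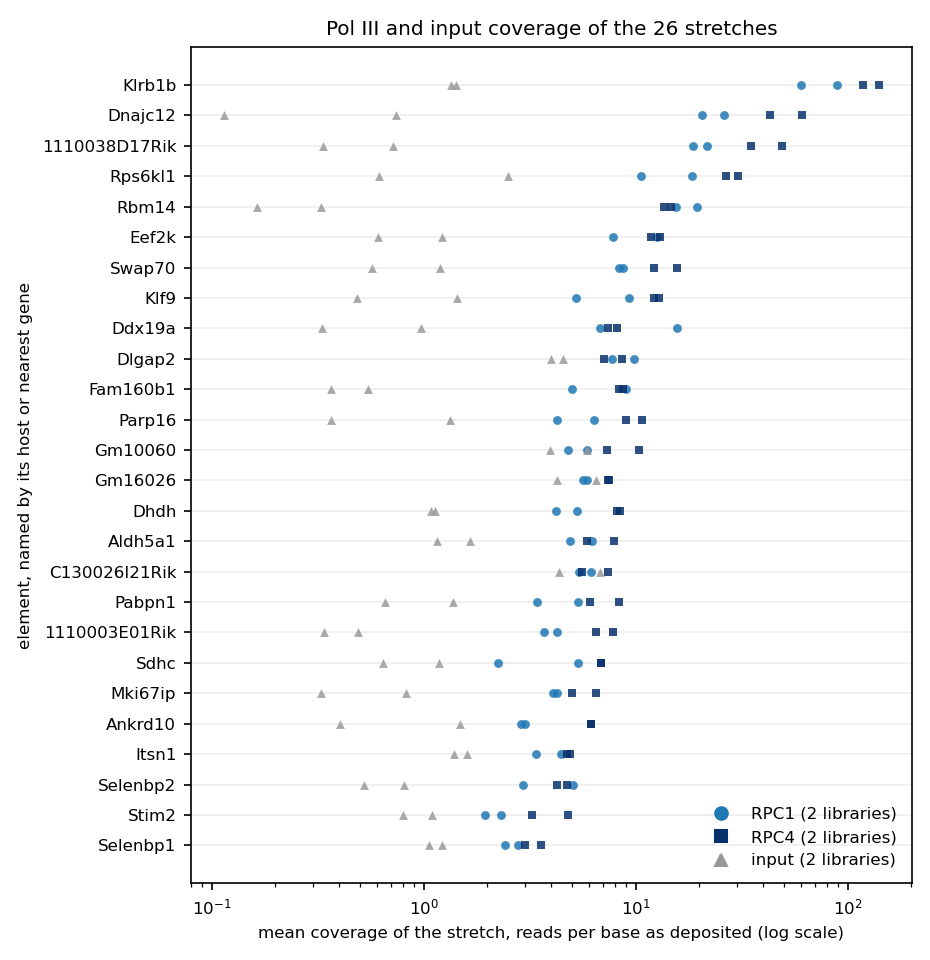
Mean coverage of each of the 26 stretches (x axis, log scale) in 2 RPC1, 2 RPC4 and 2 input libraries, 1 point per library, sorted by mean Pol III coverage. Pol III exceeds input in 23 rows, and the input points of Dlgap2, Gm10060, Gm16026 and C130026I21Rik lie far to the right of the other input points.

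The 5 members with the most Pol III were Klrb1b, Dnajc12, 1110038D17Rik, Rps6kl1 and Rbm14. The Klrb1b stretch (chr6:128788286-128788737, intergenic, 12162 bp upstream of the start of Klrb1b, a receptor gene of natural killer cells) had 89.4 and 59.99 reads per base in RPC1 and 118.2 and 140.9 in RPC4, against 1.35 and 1.42 in input. Each of the 4 Pol III libraries had its highest value of the 26 members there. The Dnajc12 stretch (chr10:62865950-62866431), in an intron of a gene for a DnaJ co-chaperone, had 26.1 and 20.5 in RPC1 and 42.9 and 61.1 in RPC4, against 0.114 and 0.745 in input. Coverage at 1110038D17Rik (chr10:74967149-74967601, in an intron) was 21.8 and 18.7 in RPC1 and 35.1 and 49.3 in RPC4, against 0.336 and 0.717 in input. In these 3 the RPC4 libraries were both above the RPC1 libraries, and every Pol III library was more than 26 times above both inputs. The RPC4 files are deeper than the RPC1 files, and the other stretches too had a higher median in RPC4 (22.0) than in RPC1 (13.0).

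Rps6kl1 (chr12:86493838-86494329, 1869 bp upstream of a gene for a ribosomal S6 kinase-like protein) had 18.4 and 10.6 in RPC1 and 26.6 and 30.3 in RPC4, against 0.618 and 2.49 in input. By ratio, the 2 inputs differed more from each other there than any 2 of the Pol III libraries did. At Rbm14 (chr19:4820750-4821211, 9346 bp upstream of a gene for an RNA-binding protein) the values were 19.4 and 15.5 in RPC1 and 14.7 and 13.6 in RPC4, against 0.165 and 0.329 in input. Here RPC1 was above RPC4, and input was the lowest of the 26 members.

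At the low end were Selenbp1, Stim2, Selenbp2, Itsn1 and Ankrd10. Selenbp1 (chr3:94738985-94739474, in an intron of a gene for a selenium-binding protein) had 2.42 and 2.79 in RPC1 and 3.01 and 3.57 in RPC4, against 1.22 and 1.06 in input. Stim2 (chr5:54383545-54384037, 5971 bp upstream of a gene for a calcium sensor of the endoplasmic reticulum) had 2.31 and 1.95 in RPC1 and 4.80 and 3.23 in RPC4, against 1.10 and 0.803 in input. The groups did not overlap in either, but the gap was small. Selenbp2, the paralogue of Selenbp1, averaged 4.25 ± 0.94 in Pol III and 0.664 ± 0.20 in input (SD, n = 4 and n = 2 libraries). Itsn1, in an intron of a gene for an endocytic scaffold protein, averaged 4.37 ± 0.69 in Pol III and 1.498 ± 0.15 in input. Ankrd10 averaged 4.53 ± 1.85 in Pol III and 0.943 ± 0.77 in input, the wide Pol III spread lying between RPC1 (2.99 and 2.87) and RPC4 (6.13 and 6.14). These values are not scaled for depth, and the RPC4 files are the deeper ones. The element named Mki67ip, nearest to a gene for a nucleolar protein that binds Ki-67, had 4.07 and 4.24 in RPC1 and 6.51 and 4.99 in RPC4, against 0.329 and 0.825 in input.

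A further 4 members, picked out after the values were seen, stood apart for high input, and none of them belonged to either sequence group. C130026I21Rik (chr1:85193202-85193659) had 6.19 and 5.43 reads per base in RPC1 and 5.58 and 7.37 in RPC4, against 6.78 and 4.35 in input. Gm16026 (chr1:85283033-85283495) had 5.92 and 5.62 in RPC1 and 7.41 and 7.48 in RPC4, against 6.49 and 4.24 in input. The Gm10060 stretch (chr8:19784551-19785003) had 4.78 and 5.91 in RPC1 and 10.3 and 7.35 in RPC4, against 5.93 and 3.96 in input. In these 3 stretches the Pol III and input libraries overlapped. Dlgap2 (chr8:14306656-14307132) had 9.88 and 7.72 in RPC1 and 8.66 and 7.07 in RPC4, against 4.53 and 4.01 in input, with no overlap but the next smallest ratio. Mean input was 4.27 or more in these 4 and 1.55 or less in the other 22 members. Their median word of 24 bases had 4 to 9 copies in the genome.

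Folds over input were tested with limma on log2(scaled coverage + 0.319), after each library had been divided by its mean over 122 other stretches with the least Pol III (anchored scaling). All 26 members passed the filter on low values, among 478 stretches tested. By the two-sided test with Benjamini-Hochberg adjustment over the 478, 22 members were above input and 0 below (0 also at an unadjusted p under 0.05). Of all stretches tested, 74.3% were above and 0% below. The anchored scaling takes 122 stretches with the least Pol III, none of them members, as unenriched, so these shares are partly set by that choice. Of the 85 anchor stretches among those tested 0 were above, and of the other 393 tested 90.3% were. The median log2 fold was 2.51 in members and 3.77 in all stretches tested. The 4 members not called were C130026I21Rik, Gm16026, Gm10060 and Itsn1. In the first 3 Pol III and input libraries overlapped, whereas at Itsn1 all 4 Pol III libraries lay above both inputs.

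The largest log2 folds were 5.95 ± 0.40 (SE) at Klrb1b with an adjusted p of 7.3e-09, 5.83 ± 0.46 at Dnajc12 with 3.8e-08, 5.28 ± 0.38 at 1110038D17Rik with 1.8e-08 and 4.97 ± 0.42 at Rbm14 with 8.1e-08. At the other end, Selenbp1 was above by 1.25 ± 0.40 (limma, adjusted p = 0.011), Stim2 by 1.45 ± 0.50 (0.018) and Dlgap2 by 1.01 ± 0.35 (0.019). Without input replicate 2 these 3 and Selenbp2 lost their calls, at log2 folds of 1.09, 1.20, 0.83 and 2.03. C130026I21Rik had 0.25 ± 0.42, Gm16026 0.40 ± 0.33, Gm10060 0.56 ± 0.35 and Itsn1 1.46 ± 0.69 (adjusted p = 0.074). By sequence, 13 of 14 members of the first group, 6 of 6 of the second and 3 of the 6 ungrouped members were above, with median log2 folds of 2.99, 2.72 and 0.78.

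These calls depended on the scaling. Where each library was divided by its total over the file, 0 members were above input and 17 below, against 19.7% above and 49.4% below among all stretches tested, and the median log2 fold was -2.05 in members and -1.15 in all. File totals compare shares of each file. The log2 fold was positive with the anchored scaling in all 26 members and negative with file totals in 22 of them. Of the 22 members above input with the anchored scaling, 13 were below it with file totals and 9 were called neither way. Anchored factors of the Pol III, RPB2 and input libraries were 0.684 to 1.15, so that anchored folds of these groups are close to ratios of the coverage as deposited. On coverage as deposited 23 members were above input for Pol III, where 75.7% of all stretches tested were, and Itsn1 was among them (log2 fold 1.43, limma, adjusted p = 0.0069).

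**Figure D2:**
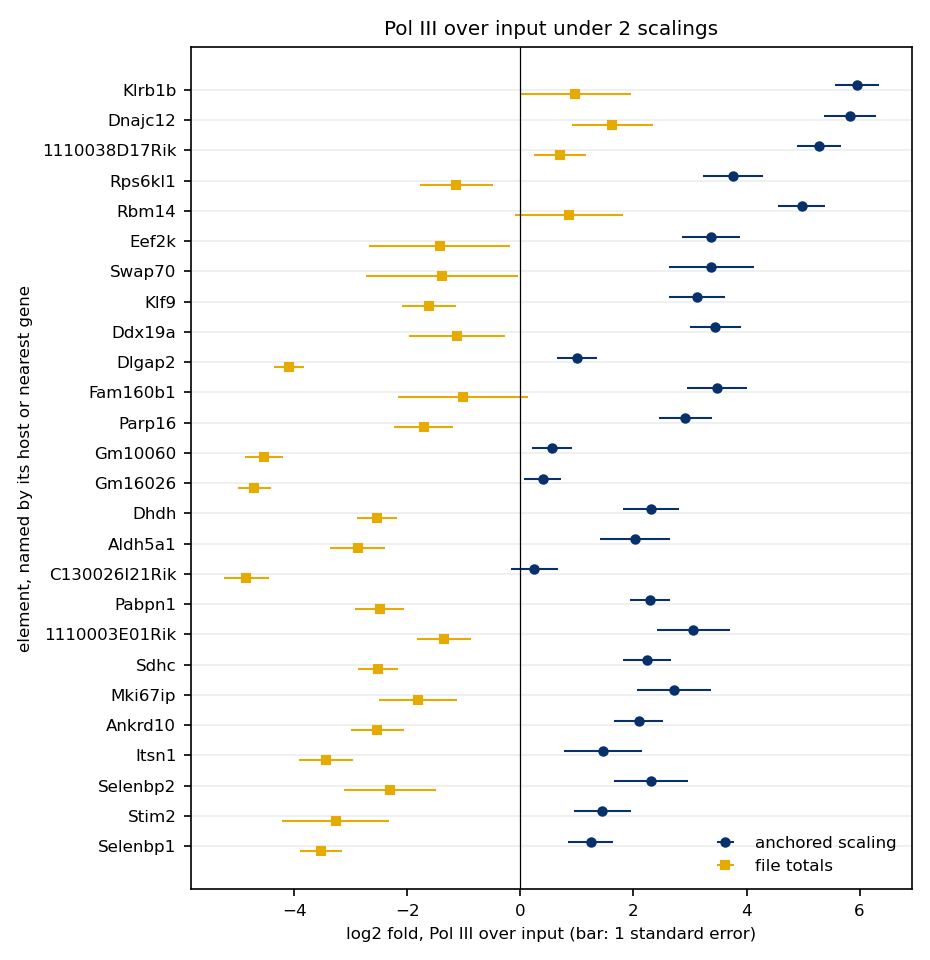
Log2 fold of Pol III over input (x axis) for each member with the anchored scaling (circles) and with file totals (squares), bars 1 standard error. All circles lie at or right of 0.25, while the squares run from -4.84 to 1.63, and both orders place Dnajc12, Klrb1b, Rbm14 and 1110038D17Rik highest.

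A contrast within each stretch does not depend on how libraries are scaled to each other, apart from the pseudocount. It set the element against the outermost 75 bp at both ends, in Pol III relative to input. By this limma test 8 of 26 members had Pol III more concentrated on the element than input was and 0 less (0 also at an unadjusted p under 0.05), while 28.9% and 0% of all stretches tested had it more and less concentrated. The 8 were Dhdh, Mki67ip, Klrb1b, Ddx19a, Dnajc12, Stim2, Eef2k and Rps6kl1. The log2 ratio of element to flanks was larger in Pol III by 4.85 ± 0.83 at Dhdh (adjusted p = 0.0036), by 4.18 ± 0.33 at Klrb1b (0.00054), by 4.11 ± 0.64 at Ddx19a (0.0022) and by 1.98 ± 0.34 at Rps6kl1 (0.0038). Mki67ip had 4.49 ± 1.15 (0.021), Dnajc12 3.86 ± 0.88 (0.013), Stim2 2.99 ± 0.73 (0.017) and Eef2k 2.43 ± 0.78 (0.048). These last 4 lost their calls without input replicate 1 and again without input replicate 2. The count was 4 without input replicate 1, 5 without input replicate 2 and 5 without RPC1 replicate 2.

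The profiles show what lies behind those ratios. At Klrb1b the element had a mean of 149.8 and 102.0 reads per base in RPC1 and 195.7 and 219.9 in RPC4, and its outer flanks 22.9 and 16.96 in RPC1 and 29.3 and 44.5 in RPC4. Input at Klrb1b ran the other way, with 0.309 and 0.671 on the element and 1.52 and 2.75 in the flanks. At Dhdh input had 0.159 and 0 on the element and 2.17 and 2.29 in the flanks. At Mki67ip it had 0.0215 and 0 on the element and 0.56 and 1.92 in the flanks. Input this low on the element enlarges these ratios. Eef2k differed, with input of 0.985 and 1.99 on the element and 0.213 and 0.747 in the flanks. The highest point of Pol III coverage lay within the element in all 4 libraries in 20 of 26 members, and that of input in both libraries in 8 of 26. Neither count was made over all stretches, so they mark no trait particular to the members. Most input summits rest on few reads. Along the printed strand of 1110038D17Rik, the Pol III summits were 81.0, 84.5, 90.0 and 90.5 bases from the start of the element, which is where the B box begins (base 81). Over the 12 first-group elements with a B box the median summit lay at -81.25 to 79.75 bases from the start of that box, so that this closeness was not general. At Dlgap2 and Gm10060 input peaked on the element too. At Gm10060 the element had 9.76 and 10.9 in RPC1, 22.8 and 15.3 in RPC4 and 12.3 and 7.53 in input, and the log2 ratio differed between Pol III and input by 0.07 ± 0.39 (adjusted p = 0.92).

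**Figure D3:**
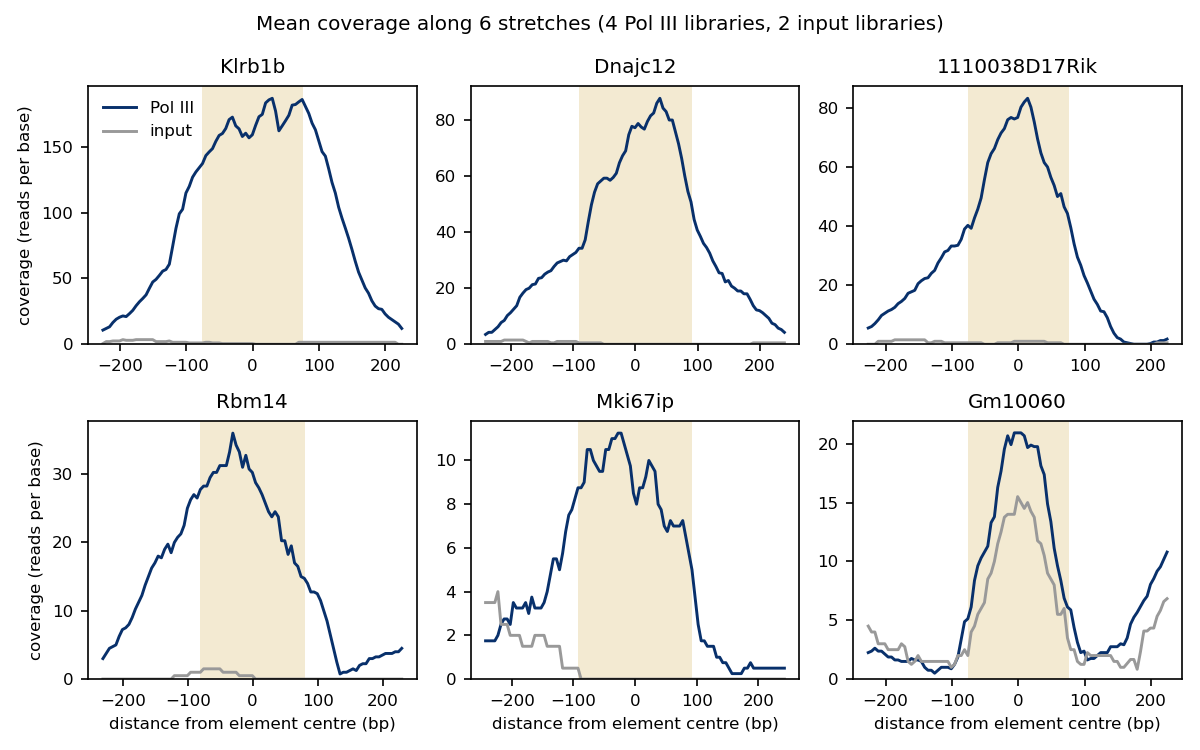
Mean coverage (y axis, reads per base, own scale in each panel) of the 4 Pol III and the 2 input libraries against distance from the element's centre along the strand used for its sequence, in 6 members; the shaded band is the element. Pol III peaks over the band in all 6 panels, input stays under 5 reads per base in the first 5, and at Gm10060 input has a peak of the same shape.

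Fractional coverage, where a base has a value more than 0.01 from a whole number, marked the members unevenly. In RPC4 replicate 1, 14 members had none and 12 had it at 2.52 to 49.9% of their bases (median 20.2%). The highest were Dlgap2 with 49.9%, C130026I21Rik with 45.2%, Selenbp1 with 28.98%, Gm10060 with 26.3% and Gm16026 with 22.0%. Over all member bases the share was 10.6 to 11.0% in the 4 Pol III libraries, against 20.4 to 20.9% in the other stretches of the same libraries. Dnajc12, 1110038D17Rik, Rps6kl1 and Rbm14 had no fractional base in any of the 12 libraries, and Klrb1b had 16.6 to 19.7% in the Pol III libraries.

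These shares went with words of 76 bases, the read length, that occur more than once in the mm9 genome. 13 members held no such word, and 12 of them had no fractional base in RPC4 replicate 1. The other 13 held at least 1, and 11 of them had fractional bases. Across the 26 members Spearman's rho between the 2 shares was 0.908, as a description, since members share sequence and library. Gm16026 had the most repeated words, 67.3%, but only the fifth highest fractional share. 4 of the 5 most fractional members were those with high input, whereas Selenbp1 had an input of 1.14 reads per base.

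**Figure D4:**
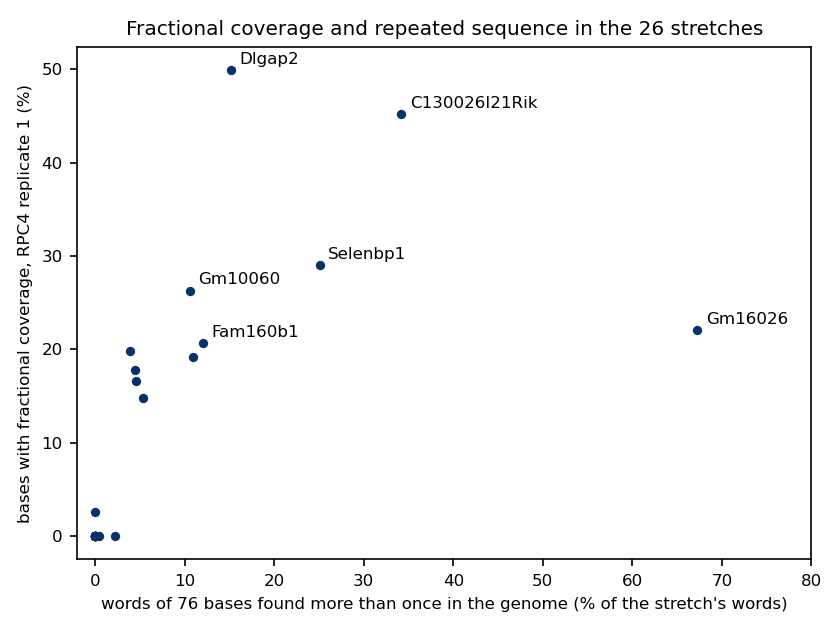
Share of bases with fractional coverage in RPC4 replicate 1 (y axis) against the share of the stretch's words of 76 bases found more than once in the genome (x axis), 1 point per member. The 12 members with neither lie on top of each other at the origin, and the 6 named points are those above 20%.

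Pol II, as RPB2, covered the members at 0.517 to 169.1 reads per base (mean of 2 libraries, median 2.87), against a median of 1.86 in the other stretches. With the anchored scaling 13 of 26 members were above input and 0 below (0 also at an unadjusted p under 0.05), where 42.7% of all stretches tested were above and 0.209% below. With file totals 4 were above and 5 below, where 6.49% of all were above and 28.9% below. Parp16, Gm10060, 1110038D17Rik and Pabpn1 were above under both.

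At Parp16 (chr9:65049094-65049551) RPB2 coverage was 116.2 and 50.7, against 1.33 and 0.365 in input, a log2 fold of 6.58 ± 0.54 (limma, adjusted p = 1.1e-06). A gene for U5 snRNA, a spliceosomal RNA made by Pol II, overlaps the last bases of this stretch on the minus strand. The RPB2 summit lay 293 and 308 bases from the start of the 158-bp element, in the flank that this gene overlaps, while Pol III on the element was 10.1 and 5.17 in RPC1 and 15.2 and 15.7 in RPC4. At 1110038D17Rik RPB2 was 23.5 and 16.0, against 0.336 and 0.717 in input, with a log2 fold of 5.00 ± 0.44 (adjusted p = 1.9e-06). Its RPB2 summit stood 28 and 58 bases before the start of the element, upstream of the Pol III summit on the printed strand.

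Pabpn1 (chr14:55512250-55512734), in an intron of a gene for a nuclear poly(A)-binding protein, 1155 bp from its start, had 22.8 and 16.7 in RPB2, against 0.660 and 1.37 in input. Its log2 fold was 4.36 ± 0.41 (adjusted p = 2.9e-06). Rbm14 had 6.71 and 7.31 in RPB2, against 0.165 and 0.329 in input, and a log2 fold of 4.13 ± 0.48 with the anchored scaling. With file totals the Rbm14 fold was 2.76 ± 1.11 and was not called (adjusted p = 0.081). At Klrb1b, where Pol III was highest, RPB2 was 4.58 and 2.72, against 1.35 and 1.42 in input.

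Gm10060 had the highest mean coverage of all members in both the RPB2 and the H3K4-titled libraries, though its RPB2 log2 fold was below that of Parp16. This stretch overlaps an exon of an annotated pseudogene on chromosome 8 and had 145.6 and 192.5 in RPB2, against 5.93 and 3.96 in input (log2 fold 5.42 ± 0.41, adjusted p = 7.2e-07). In the H3K4-titled libraries it had 211.9 and 489.4, the highest mean of all 532 stretches, with a log2 fold of 9.10 ± 0.41 (adjusted p = 6.9e-10). Its H3K36-titled coverage was 0.554 and 0.506, below input by the anchored scaling (log2 fold -1.38 ± 0.41, adjusted p = 0.045). Part of this coverage was fractional, 58.3 and 50.1% of bases in RPB2 and 46.6 and 43.7% in input, and 10.6% of its words of 76 bases occur more than once in the genome. Whether another copy contributed reads was not tested.

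In the H3K4-titled libraries, members had 0 to 350.6 reads per base (median 0.874), against a median of 1.30 in the other stretches. With the anchored scaling 16 members were above input and 1, Sdhc, below, where 66.9% of all stretches tested were above and 4.39% below. With file totals only Gm10060 was above and 17 were below, where 11.9% of all were above and 54.8% below. The anchored factors of these libraries, 0.0786 and 0.151, raise their coverage several-fold, and on coverage as deposited 8 members were above and 11 below, where 38.5% of all were above and 26.2% below. The 8 were Gm10060, Klrb1b, Eef2k, Pabpn1, Ddx19a, Selenbp1, Selenbp2 and Rbm14, all of them above with the anchored scaling too.

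The Klrb1b stretch had 21.5 and 47.3 reads per base in the H3K4-titled libraries, against 1.35 and 1.42 in input. H3K4-titled coverage there was lower on the element, at 8.90 and 22.2, than in the outer flanks, at 24.1 and 68.2. Eef2k (chr7:127985947-127986443), 150 bp upstream of the start of a gene for the kinase of elongation factor 2, had 10.9 and 23.3, against 0.612 and 1.22 in input. Pabpn1 had 10.4 and 13.7, against 0.660 and 1.37, and Ddx19a (chr8:113521957-113522416), 486 bp upstream of a gene for an RNA helicase, had 4.95 and 9.09, against 0.974 and 0.330 in input. Their anchored log2 folds were 7.38 ± 0.46 at Klrb1b, 6.90 ± 0.60 at Eef2k, 6.38 ± 0.41 at Pabpn1 and 6.03 ± 0.52 at Ddx19a (limma, adjusted p 1.5e-07 or less). With file totals these were 1.89 ± 1.13, 1.56 ± 1.44, 1.01 ± 0.50 and 0.91 ± 0.98, and none was called. 3 of these 4 lie within 1.2 kb of a gene start, whereas Klrb1b is 12162 bp from the nearest one. Closeness to a gene start did not always go with such coverage. Dhdh, 954 bp from the start of Tulp2, had 0 and 0.160 reads per base in the H3K4-titled libraries.

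Members with much Pol III were not all high in the H3K4-titled libraries. Dnajc12 had 0.114 and 0.548, against 0.114 and 0.745 in input, and 1110038D17Rik 0.168 and 0.843, against 0.336 and 0.717 in input. At these depths single reads set such values. Both were above input by the anchored scaling, with log2 folds of 1.95 ± 0.53 and 2.18 ± 0.44, below it with file totals, and called neither way on coverage as deposited.

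**Figure D5:**
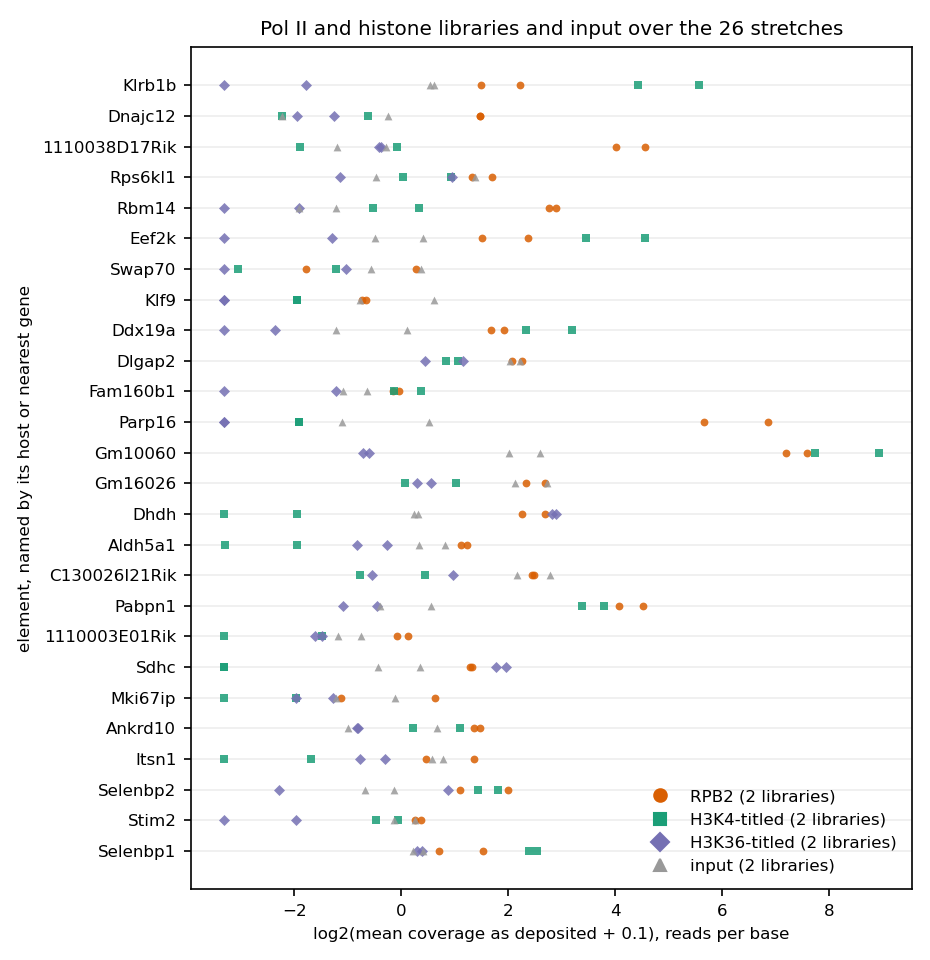
Coverage of the 26 stretches in the 2 RPB2, 2 H3K4-titled, 2 H3K36-titled and 2 input libraries, as log2(coverage + 0.1), in the order of mean Pol III coverage. RPB2 stands out at Gm10060, Parp16, 1110038D17Rik and Pabpn1, H3K4-titled at Gm10060, Klrb1b, Eef2k and Pabpn1, and H3K36-titled at Dhdh and Sdhc.

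The H3K36-titled libraries were thin, with 0 to 7.09 reads per base in members (median 0.482) against a median of 0.240 in the other stretches. With the anchored scaling 3 members were above input and 4 below, where 3.35% of all stretches tested were above and 9.41% below. With file totals 2 were above and 6 below, where 3.56% of all were above and 19% below. The anchored factors of these libraries, 0.315 and 0.293, raise their coverage, and on coverage as deposited 2 members were above and 11 below, where 2.51% of all were above and 67.4% below. Dhdh and Sdhc were above with the anchored scaling and with file totals. Dhdh (chr7:52740441-52740916), in an intron of a gene for dihydrodiol dehydrogenase, had 7.28 and 6.90, against 1.14 and 1.08 in input (log2 fold 4.00 ± 0.57, adjusted p = 0.00054). Sdhc (chr1:173073472-173073939), over an exon of the gene for a subunit of succinate dehydrogenase, had 3.79 and 3.29, against 0.642 and 1.18 in input (log2 fold 3.28 ± 0.49, adjusted p = 0.00073). In both stretches the 2 H3K36-titled libraries were alike and lay above both inputs, and H3K4-titled coverage was 0 and 0 at Sdhc and 0 and 0.160 at Dhdh.

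The third member above, 1110038D17Rik (0.671 and 0.651, against 0.336 and 0.717 in input), overlapped with input, and its call was lost without any 1 of the 4 libraries. The 4 below were Klrb1b, Gm10060, Parp16 and Klf9. H3K36-titled coverage was 0 in both libraries at Parp16 and Klf9, and 0.190 and 0 at Klrb1b. At this depth a value lower than input rests on few reads, and 0 members were called below without input replicate 1.

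RPC1 and RPC4 were compared as 2 subunits of the same enzyme. No member differed between them by limma (0 of 26, also at an unadjusted p under 0.05, and 0% of all stretches tested), and with file totals 1 member had an unadjusted p under 0.05. Log2 differences of RPC1 from RPC4 ran from -0.67 at Dnajc12 to 0.84 at Ddx19a, with a median standard error of 0.54, and no difference was detectable at this precision. At Ddx19a RPC1 had 15.6 and 6.77 and RPC4 8.17 and 7.44, the difference resting on RPC1 replicate 1.

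The length limits cut through a continuous range. The shortest member, Klrb1b, is 452 bp long with 102.1 ± 35.1 reads per base of Pol III (SD, n = 4) and 1.38 of input. The longest, Eef2k, is 497 bp long with 11.3 ± 2.4 of Pol III and 0.918 of input. Just outside were a stretch of 443 bp with 133.2 of Pol III and 1.61 of input, one of 444 bp on chromosome 5 (chr5:15197645-15198088) with 6.05 of Pol III and 4.89 of input, and one of 501 bp on chromosome 6 (chr6:47730358-47730858) with 2.37 of Pol III and 0.409 of input.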

How the data were processed

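The authors deposited 1 coverage track per library, a signal of reads per base, in mm9 per the submitters' processing notes. A lone read adds 1 over 76 bp. The sources used here do not name an aligner, a read filter or a way of dividing reads among places. Lines that abut were joined into stretches, and 1 stretch of the X chromosome that some files lack was left out. The value of a stretch was its mean coverage. Tests used R 4.3.3 and limma 3.58.1 on log2(scaled coverage + pseudocount), fitting the 12 libraries together with a trended prior variance and leaving 6 degrees of freedom. Anchored scaling divided by the 10% trimmed mean over the 25% of other autosomal stretches with the lowest Pol III share, which takes these as unenriched in every library. The pseudocounts, 0.319 (anchored) and 0.262 (file totals), are the 5th percentile of nonzero values and shrink low folds. Stretches under the 0.1 quantile were left out. The fit was tested on simulated data and recovered 16 of 50 Pol III folds of log2 1, 39 of 50 of log2 2 and 50 of 50 of log2 3, with 0 of 278 false calls. Simulated folds were placed only outside the stretches with the lowest Pol III share, and all libraries had the same base profile. The simulation therefore could not test whether the anchor stretches are unenriched, and says nothing of the choice of scaling. Its base was the mean of scaled input and RPB2 coverage, and its added spread was set and not taken from the replicates. The share of folds recovered and of false calls may thus differ at the real input depth and spread.

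Across the 26 members Spearman's rho was 0.877 between the RPC1 libraries, 0.865 between the RPC4 libraries and 0.475 between the inputs. Sequence, words and boxes were read from NCBIM37 (Python 3.11.15, Biopython 1.88). Alignments scored 2 per match, -3 per mismatch, -5 to open and -2 to extend a gap. Members given values are those with the 5 highest and 5 lowest Pol III means, the 5 largest folds called above input for RPB2 and H3K4-titled libraries, the 5 largest fractional shares, both examples named in the length rule and the shortest and longest; Sdhc, Dhdh, Dlgap2 and Klf9 and the lists of calls were added after values were seen. The members, lists and boxes were chosen with earlier results of these data known.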

Additional observations from a re-analysis of the deposited data

How the results depend on the processing

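Scaling moved the counts most. Members above input for Pol III numbered 22 as reported, 0 with file totals and 2 with median-of-ratios factors, and members below 0, 17 and 10. With median-of-ratios factors 30.8% of all stretches tested were above and 31.6% below. Shares in parentheses are likewise of all stretches tested. For RPB2 file totals gave 4 members above and 5 below, and median of ratios 4 above (8.79%) and 1 below (1.46%). For H3K4-titled libraries file totals gave 1 above and 17 below, and median of ratios 5 above (25.5%) and 11 below (29.1%). On coverage as deposited, 8 (38.5%) were above and 11 (26.2%) below for H3K4-titled and 11 (67.4%) below for H3K36-titled libraries. The other H3K4-titled counts below were 2 on the element only and 0 with the libraries of the contrast only, and 1 to 3 without 1 library. H3K36-titled counts below were 2 with median of ratios (9.62%), 2 with 2 times the pseudocount, 1 without the low filter, 1 on the element only, 0 with the contrast's libraries only, and 0 to 3 without 1 library. Without 1 library, 4 to 7 members had Pol III concentrated on the element, against 8. Pol III log2 folds of 22 of the 26 members changed sign with file totals and of 19 with median of ratios. Followed one by one for Pol III were the members with the 5 highest and 5 lowest means, the 4 with high input and Mki67ip. Of those called above as reported, these changed sign with file totals: Mki67ip (-1.80), Selenbp2 (-2.30), Selenbp1 (-3.52), Stim2 (-3.26), Ankrd10 (-2.53), Dlgap2 (-4.09) and Rps6kl1 (-1.13). With median of ratios the first 6 of these did (-0.64, -1.10, -2.30, -2.05, -1.33 and -2.85). Further members called above also changed sign with file totals, among them Dhdh (-2.54) and Sdhc (-2.51). The cause was not tested. Single values under all alternatives were counted for a chosen set only. It held the members followed one by one for Pol III and, for the other tests, those called above with the largest folds. Of these 505 values, 427 kept their call or were called in neither fit. A further 52 lost their call with the same sign, 13 gained one and 13 that had been called changed sign. With an anchor chosen without Pol III, H3K4-titled replicate 1 had a factor of 0 and was left out of that fit. Same-numbered libraries did not deviate together (correlations -0.092 to 0.138 over 15 pairs of groups, 1 above 0.1); with the replicate number as a block 23 members were above for Pol III and 7 had Pol III concentrated on the element, Eef2k losing its call. Input depth of about 6 reads per median member limits every fold.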
